A study of Mus musculus with 8 samples.

Results

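Intergenic long noncoding RNA intervals are candidate transcribed regions that this array names by their position alone. Their probes were chosen as every non-control probe whose name is an mm9 interval with a strand, forward or reverse, and 16181 of the array's 55681 non-control probes met that rule. These probes covered 3540 intervals on 20 chromosomes. Of the intervals, 2473 were probed on 1 strand and 1067 on both, which gave 4607 combinations of interval and strand with 1 to 10 probes each (median 3). The median interval was 10676 bp long, and the range ran from 62 to 7128487 bp. A probe that the array assigns to a named gene lay inside 596 of the intervals (16.8%), so not all of them are free of known genes. The study measured C57BL/6 mouse embryos at E10.5 with a conditional loss of Geminin (Gmnn), a protein that holds back the licensing of replication origins and also binds chromatin regulators. Embryos labelled "fl/fl; cre/o" are called mutant here and were compared with wild-type embryos. Which promoter drives cre, which cells lost Gmnn and what was deleted are not given in the sources used here. From 2 embryos of each genotype the spinal neural tube and the paraxial tissue beside it were laser-captured separately, which gave 4 groups of 2 arrays and 8 arrays in all. RNA was extracted with a PicoPure kit, and its cDNA was labelled chemically with Cy5 and read as a 1-colour signal. The labels do not say which cDNA strand carried the dye, so forward and reverse probes report an interval but cannot be told apart as sense or antisense.

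The neural tube is the epithelium that forms the spinal cord. Paraxial tissue holds the somites and their derivatives, among them the first muscle cells and the mesenchyme that forms vertebrae. Long noncoding RNAs are transcripts without a long protein-coding frame, and many lie beside genes for developmental transcription factors or carry microRNA precursors within them. They are often transcribed in the same tissues as their neighbours and at lower levels than messenger RNAs. Of 10 neural tube markers, 9 passed the test as higher in neural tube, whereas 7 of 8 muscle markers and 7 of 8 sclerotome markers passed as lower. Markers of other cells that the capture could hold also passed as lower in neural tube, namely 4 of 6 endothelial, 3 of 6 erythroid, 2 of 6 neural crest and 1 of 5 surface ectoderm markers, against 0 of 5 macrophage markers. Their part in the tissue differences below was not tested. The single Gmnn probe, whose place relative to the deleted part is not given, read (log2 scaled signal) 12.35 and 12.24 in wild-type against 12.11 and 11.80 in mutant neural tube, and 12.20 and 11.88 against 11.42 and 11.39 in paraxial tissue. Both mutant arrays of each tissue were below both wild-type arrays, with differences of -0.35 ± 0.25 and -0.63 ± 0.25 (SE), and neither passed the test (limma adjusted p = 0.918 and 0.994).

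Every member was a 60-base probe, and a few sequences are printed because the results turn on them. Capitals mark G and C, since the share of these bases followed how often a probe was detected. All coordinates are mm9, and sequences are those of the array's probes, 5′ to 3′. The first 4 probes belonged to intervals with large tissue differences. They lay at chr3:34497448-34497507 (reverse, on the side of Sox2), chr16:30204712-30204771 (forward, between Hes1 and Cpn2), chr1:20672069-20672128 (forward, between Pkhd1 and Il17a) and chr12:110928953-110929012 (reverse, between Rtl1 and Dio3).
A_30_P01020151: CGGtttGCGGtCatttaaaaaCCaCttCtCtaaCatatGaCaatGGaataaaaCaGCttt
A_30_P01031287: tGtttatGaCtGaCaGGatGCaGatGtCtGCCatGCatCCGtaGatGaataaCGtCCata
A_30_P01028955: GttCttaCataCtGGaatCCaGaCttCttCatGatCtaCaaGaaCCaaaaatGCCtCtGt
A_30_P01017858: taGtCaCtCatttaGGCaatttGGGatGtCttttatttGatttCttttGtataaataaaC

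The next 6 probes lay close together in the interval chr2:94082835-94101939, between Hsd17b12 and Ttc17, and show how far the probes of a single interval can differ. The first 5 were its reverse-strand probes, starting at chromosome positions 94092066, 94092198, 94092285, 94092394 and 94092138. The last, on the forward strand, was the exact reverse complement of the fourth, A_30_P01017843.
A_30_P01020369: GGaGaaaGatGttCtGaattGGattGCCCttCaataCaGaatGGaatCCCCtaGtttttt
A_30_P01017702: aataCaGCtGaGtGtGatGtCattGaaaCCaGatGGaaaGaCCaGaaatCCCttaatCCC
A_30_P01029314: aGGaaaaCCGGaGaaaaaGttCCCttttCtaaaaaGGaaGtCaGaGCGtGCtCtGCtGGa
A_30_P01017843: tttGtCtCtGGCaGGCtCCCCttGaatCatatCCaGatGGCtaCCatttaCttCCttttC
A_30_P01018509: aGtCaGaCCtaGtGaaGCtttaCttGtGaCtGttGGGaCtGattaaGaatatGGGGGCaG
A_30_P01032490: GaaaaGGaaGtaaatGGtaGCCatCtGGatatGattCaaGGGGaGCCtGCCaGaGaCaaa

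Both further pairs, each an exact reverse complement at a single position, carry the comparison of strands. The first pair lay at chr1:42759215-42759274 beside Pou3f3 and the second at chr13:5508113-5508172, the forward probe printed first in each.
A_30_P01032893: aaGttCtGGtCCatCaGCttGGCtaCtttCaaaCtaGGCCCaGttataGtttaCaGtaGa
A_30_P01026335: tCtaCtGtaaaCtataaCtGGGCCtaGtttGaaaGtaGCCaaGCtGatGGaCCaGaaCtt
A_30_P01024998: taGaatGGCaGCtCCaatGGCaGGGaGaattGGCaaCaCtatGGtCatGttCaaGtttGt
A_30_P01018265: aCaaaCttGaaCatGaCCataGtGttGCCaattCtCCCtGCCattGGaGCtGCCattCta

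Most interval probes gave signal in both tissues and both genotypes. A probe was taken as detected where the scanner software flagged it well above its local background. Between 69.2% and 77.5% of the 16178 interval probes left after 3 outlier spots were detected on each array, against 72.4% to 78.1% of the other probes. Olfactory receptor genes, which are not known to be expressed in these tissues, served as a class with little RNA expected, chosen after the values were seen. Their 1179 probes were detected at 28% to 37.7%, so flagged signal alone does not show that an interval is transcribed. The mean share of interval probes detected was 77.2% ± 0.50 (SD, n = 2) in wild-type neural tube and 72.5% ± 0.76 in mutant neural tube. It was 74.8% ± 2.72 in wild-type and 70.7% ± 2.02 in mutant paraxial tissue. The mutant share was lower in both tissues, and the gap in paraxial tissue was of the order of the spread between its arrays. Other probes were detected at 77.9% and 78.1% in wild-type against 74.1% and 74.4% in mutant neural tube, and 77.7% and 73.8% against 72.4% and 73.5% in paraxial tissue. Olfactory receptor probes went from 37.7% and 34.2% to 30.5% and 28.6% in neural tube and from 36.4% and 28% to 29.0% and 28.3% in paraxial tissue. In neural tube the mutant arrays were thus below the wild-type arrays in all 3 classes of probe. On all 8 arrays 10381 interval probes were detected (64.2%), compared with 67.4% of other probes and 22.1% of olfactory receptor probes, and 2752 (17%) were detected on none.

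Detection rose steeply with the number of G and C bases in the probe. Averaged over the arrays it went from 25% of interval probes with at most 17 such bases to 46.3% at 18 to 21, 59.7% at 22 to 24, 78.5% at 25 to 27, 90.2% at 28 to 30 and 96.0% at 31 or more. Other probes went from 42.0% to 96.0% over the same classes. Olfactory receptor probes climbed from 8.29% at 18 to 21 bases to 79.9% at 31 or more. Interval probes with at least 17 G were detected at 91.7% and those with at most 8 at 60.2%. For C the same shares were 88.1% and 65.5%. Base composition and the kind of transcript cannot be separated for a single probe, and no level of one probe was compared with that of another for this reason.

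Few intervals were switched on or off between groups. Just 17 interval probes were detected on all 4 neural tube arrays and on no paraxial array, and 6 showed the opposite. Detection on all wild-type and no mutant arrays was seen for 28 and the reverse for 1. Other probes gave 51, 30, 41 and 0 in the same classes. As shares these were 0.105%, 0.037%, 0.173% and 0.006% of interval probes, against 0.129%, 0.076%, 0.104% and 0% of other probes. By interval and strand, 2377 of 4607 combinations (51.6%) had every probe detected on both arrays of at least 1 group, 1875 had some and 355 had none. Probes meeting that rule were kept for testing: 12311 interval probes (76.1%), while 3867 were not tested. A probe kept through its bright group alone was bound to differ, so the counts below describe the tested probes and not all members.

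Neural tube and paraxial tissue differed at 1199 of the 12311 tested interval probes when the tissue difference was averaged over both genotypes. Of these, 625 were higher and 574 lower in neural tube. The share was 9.74%, while 12.0% of all 42752 tested probes passed (6.10% higher and 5.87% lower), a total that includes the interval probes. The difference between these shares was not tested. All tests were limma fits over the whole array with the embryo as a random block and Benjamini-Hochberg adjustment at 0.05. Differences are log2 neural tube minus log2 paraxial, and p-values rest on 2 embryos per genotype. In bulk tissue, fewer cells of a type and less RNA per cell cannot be told apart. At 888 interval probes (7.21%) the 4 neural tube arrays did not overlap the 4 paraxial arrays, against 9.25% of all tested probes, and 668 of the called probes were among them. The called probes came from 649 intervals. In 650 interval and strand combinations with a called probe and at least 2 tested probes, all probes shared a sign in 396, all were called in 89 and a single probe was called in 420.

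Fewer probes passed within a genotype, where 2 arrays met 2. In wild type 200 interval probes passed (1.62%, against 2.32% of all tested probes). In neural tube 79 were higher (0.642%, against 0.765% of all) and 121 lower (0.983%, against 1.55% of all). In mutants 495 passed (4.02%, against 5.55%), 272 higher (2.21%, against 2.67% of all) and 223 lower (1.81%, against 2.87% of all). The tissues' arrays did not overlap at 4416 interval probes in wild type (35.9%, against 36.3% of all) and 3990 in mutants (32.4%, against 36.2%). Whether the genotypes differed in this was tested by the interaction given further below. Without the embryo block 145 probes passed for the average, 5 in wild type and 0 in mutants. With normexp background correction the average gave 528 higher and 1021 lower, wild type 159 and 390, and mutants 216 and 281. Median scaling gave 139 higher and 140 lower in wild type.

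These counts moved with single arrays. Leaving out the first wild-type neural tube or paraxial array raised the averaged count to 2307 or 1993. Without the first mutant neural tube or paraxial array it was 585 or 622, and without the second 301 or 465. Leaving out both tissues of an embryo gave 750 and 184 (wild type, first and second embryo) and 504 and 161 (mutant). In wild type the count was 947, 696, 89 and 54 without its neural tube 1, paraxial 1, neural tube 2 and paraxial 2 arrays. Without mutant arrays in that order it was 73, 92, 51 and 66, without mutant embryos 1 and 2 it was 32 and 0, and without wild-type embryo 2 it was 0. In mutants it was 10, 87, 0 and 57 without their own arrays in that order, 879, 1047, 816 and 929 without the wild-type arrays, 214 and 95 without wild-type embryos, and 14 and 0 without mutant embryos. Of the 1199 probes, 221 were called whichever array was left out, 48 whichever embryo was, and 28 under each of these and every processing alternative but the one that keeps the brightest probe. Those 28 included probes in the Sox2-side and Mrln intervals, but not the probes of those intervals named next for their large differences. The probe between Foxc2 and Foxl1 given further below was among the 28.

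The 10 called probes with the largest fitted differences in each direction were named, with 1 probe per interval and strand and only where the tissues' arrays did not overlap. Where a probe was well above background on no array of the dimmer tissue, only a bound can be given. That bound is the bright tissue's mean over the mean, per array, of the dim probe's own signal or the lowest signal well above background, whichever was higher. Only 2 of the 20 were detected on all 8 arrays, and 9 of them have such a bound. A probe with such a bound was tested because its bright tissue was detected, so its p-value is printed for completeness and supports nothing further. Each of the 20 kept its direction in every alternative that tested it, which the rule of no overlap between tissues largely fixed in advance. Without wild-type embryo 2, 11 of the 20 still passed, and without mutant embryo 2, 13.

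Among the intervals higher in neural tube, the one on the side of Sox2, the HMG-box factor of neural progenitors, came first by fitted difference. Its reverse probe in chr3:34497447-34501170, 53.3 kb from the Sox2 probe, read 9.19 and 8.84 in wild-type and 9.23 and 10.23 in mutant neural tube, against 4.72 and 4.99 in wild-type and 5.19 and 4.96 in mutant paraxial tissue. Both genotypes were high in neural tube, and no paraxial array was well above background. It was at least 5.73-fold higher in neural tube (limma adjusted p = 0.000877). The Sox2 probe itself was higher by 2.22 on the log2 scale (adjusted p = 0.00688). In RefSeq's gene order Sox2ot, a long noncoding RNA that overlaps Sox2, and Mir1897 lie between Dnajc19 and Sox2.

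Intervals beside Pou3f3, a POU-domain factor of neural cells, gave 4 of the 10 probes named as higher, on both strands. These came from chr1:42758928-42771337 and chr1:42759171-42771337, which overlap, so they are not 4 separate regions. The forward probe A_30_P01031173 in chr1:42758928-42771337 read 9.81 and 9.82 in wild-type and 9.32 and 10.13 in mutant neural tube, against 8.05 and 4.53 in wild-type and 5.40 and 4.67 in mutant paraxial tissue. The first wild-type paraxial array was the highest of its tissue, and the difference was 4.11 ± 0.58 (SE, adjusted p = 0.00707). A reverse probe in chr1:42759171-42771337 differed by 4.38 ± 0.85 (adjusted p = 0.0205). The array's own probe for 2900092D14Rik lies inside this interval.

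Sall1 is a zinc-finger factor, and the forward probe in chr8:91471819-91551119 sat 2.50 kb from its probe. That probe read 9.18 and 9.16 in wild-type and 9.73 and 9.66 in mutant neural tube, against 4.75 and 4.81 in wild-type and 8.15 and 5.02 in mutant paraxial tissue. The first mutant paraxial array stood above the other paraxial arrays, and the difference was 3.75 ± 0.48 (adjusted p = 0.00528). The Sall1 probe differed by 2.22 in the same direction.

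The interval between Hsd17b12 and Ttc17, whose sequences are printed above, has Mir670hg and Mir129-2 between its flanking genes in RefSeq order. Its reverse probe A_30_P01020369 read 8.89 and 8.32 in wild-type and 9.11 and 8.32 in mutant neural tube, against 5.08 and 4.69 in wild-type and 5.52 and 4.77 in mutant paraxial tissue. It was detected on the 4 neural tube arrays alone and was at least 3.51-fold higher there (adjusted p = 0.000836). All 5 reverse probes passed, and their differences ran from 0.67 ± 0.12 (A_30_P01018509) to 3.65 ± 0.16 (SE). Between them came A_30_P01017702 with 2.77 ± 0.44, A_30_P01029314 with 2.56 ± 0.38 and A_30_P01017843 with 0.95 ± 0.18. Both A_30_P01029314 and A_30_P01018509 have 27 G and C bases, and the former was detected on 5 of 8 arrays. A difference at 1 probe is therefore not the difference of its interval.

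Next to Hes1, a repressor and Notch target that keeps neural progenitors undifferentiated, the forward probe in chr16:30170306-30223193 read 8.59 and 7.54 in wild-type and 7.77 and 8.42 in mutant neural tube, against 4.59 and 4.65 in wild-type and 5.09 and 4.81 in mutant paraxial tissue. It was above background in neural tube alone and at least 2.35-fold higher there (adjusted p = 0.00183). The array's 1700025H01Rik probe lies inside the interval, 4.39 kb away. Between 2 probes of Dchs2, a large cadherin, the forward probe in chr3:83120454-83152078 was at least 4.04-fold higher (adjusted p = 0.001). The reverse probe in chr1:185808525-185826139 was at least 2.62-fold higher (adjusted p = 0.00193).

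The lowest fitted differences in neural tube belonged to intervals at muscle genes. Mrln encodes myoregulin, a small membrane protein that inhibits the calcium pump of skeletal muscle, and the array's Mrln probe lies inside chr10:69679644-69682458. The forward interval probe there read 5.0 and 4.16 in wild-type and 4.92 and 4.90 in mutant neural tube, against 10.53 and 12.11 in wild-type and 9.31 and 9.32 in mutant paraxial tissue. Paraxial arrays were all bright, no neural tube array was above background, and the mutant paraxial arrays were below both wild-type ones. Neural tube was at least 12.6-fold lower (adjusted p = 0.00147). This probe lies within 0.01 kb of the gene probe, whose own difference was -4.32, so it is not separate evidence of another RNA. In the longer interval chr10:69669025-69686275 the forward probe was at least 6.5-fold lower and a reverse probe differed by -4.40 ± 0.27 (adjusted p = 0.00162 and 0.00147).

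Between Pkhd1 and Il17a, RefSeq's order places Lincmd1, a muscle long noncoding RNA, with Mir206 and Mir133b, microRNAs of skeletal muscle. The forward probe in chr1:20669157-20672643 read 4.64 and 3.88 in wild-type and 4.62 and 4.62 in mutant neural tube, against 9.72 and 11.91 in wild-type and 6.72 and 10.26 in mutant paraxial tissue. It was above background on 3 of the 4 paraxial arrays and on no neural tube array. The bound was at least 7.94-fold lower in neural tube (adjusted p = 0.00564).

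In the interval on the side of Emx2, a homeobox gene, where the array's Emx2os probe lies inside, the forward probe differed by -3.98 ± 0.84 (adjusted p = 0.0265). That probe was well above background on 5 of 8 arrays, so the size rests partly on dim values. It read 6.13 and 3.86 in wild-type and 7.35 and 5.89 in mutant neural tube. In paraxial tissue it read 7.98 and 10.23 in wild type and 9.11 and 11.83 in mutants. The reverse probe in chr18:60789616-60807973, between Synpo and Ndst1, differed by -3.40 ± 0.35 (adjusted p = 0.00339). The reverse probe in chr12:110896603-110940553 at the Rtl1 to Dio3 domain was at least 1.92-fold lower (adjusted p = 0.0062).

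Many called probes shared a locus with other called probes. Intervals within 25 kb of each other, a distance chosen after the values were seen, formed 1836 loci, of which 506 held a called probe. Of the 214 with at least 2 called probes, 183 had them all in 1 direction. The 55 loci with at least 5 called probes held 508 of the 1199 calls (42.4%). These loci were picked by their calls, and their share of the tested probes was not computed. The 42.4% therefore does not show that calls were concentrated. Probes of a locus can share a transcript, so they are not separate events.

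The locus with the most calls was chr12:110842149-110988678, in the imprinted domain between Rtl1 and Dio3, where the noncoding Rian and Mirg and a long run of microRNA genes lie in RefSeq order. Of its 64 tested probes 58 were lower in neural tube and none higher. The median signal over its probes was 11.36 and 11.22 in wild-type and 11.06 and 11.50 in mutant neural tube, against 12.03 and 12.96 in wild-type and 11.90 and 12.82 in mutant paraxial tissue. Each neural tube median lay below every paraxial median, and the second paraxial array of each genotype was above the first. The median difference was -1.26, with -1.40 in wild type and -1.20 in mutants, and single probes ran from -3.15 to -0.61. The locus chrX:50400250-50410825 between Hprt and Plac1, where RefSeq order places Mir503 and Mir322, had 14 of 17 probes lower (median -1.62). Between 2 probes of Mecom, a zinc-finger factor, chr3:30032959-30133959 had 19 of 33 lower (median -1.19).

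Loci higher in neural tube were led by the Pou3f3 locus chr1:42689799-42771337, where 26 of 28 probes passed. The array's Pantr1, 2900092D14Rik and Pou3f3 probes lie inside it. Its median signal was 13.35 and 13.04 in wild-type and 13.10 and 13.33 in mutant neural tube, against 12.11 and 10.36 in wild-type and 11.03 and 9.72 in mutant paraxial tissue. No paraxial array reached a neural tube array, the median difference was 2.52, and the second paraxial array of each genotype was the lower. At Sall1, chr8:91471819-91594119 had 25 of 31 probes higher (median 1.65). Beyond Hoxc4, one of the homeobox genes that pattern the spinal cord and vertebrae, chr15:102920547-102995947 had 15 of 24 (median 0.93). That locus lay 53.3 kb from Hoxc4, and the array's D930007P13Rik and Smug1 probes lie inside it. At Irx5, a homeobox gene, chr8:94841965-94881130 had all 10 (median 1.23), with the array's Crnde probe inside. Between Cd96 and Nectin3, chr16:46384974-46391331 had all 10 (median 1.36).

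Of the loci with the most calls, 2 flank microRNA genes known from neurons. At chr13:83860985-84023718, between Mef2c and Tmem161b where RefSeq order places Mir9-2, 13 of 18 probes were higher in neural tube (median 2.11). At chr14:65205076-65219432, between Msra and Kif13b where it places Mir124a-1hg, 10 of 11 were higher (median 2.11). For the first, the median signal was 13.57 and 12.75 in wild-type and 10.30 and 12.81 in mutant neural tube, against 12.05 and 10.05 in wild-type and 9.37 and 9.29 in mutant paraxial tissue. Each genotype's neural tube arrays lay above its own paraxial arrays, and the first mutant neural tube array was below the first wild-type paraxial one. Intervals in general often had a microRNA gene between their flanking genes. It was so for 373 of 3240 intervals with a tested probe (11.5%) and 95 of 645 with a called probe (14.7%), whose flanking genes were also farther apart (median 183 against 153 kb).

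At the locus of the muscle gene Mrln 10 of 12 probes were lower in neural tube (median -3.40). The median at Mrln was -4.36 in wild type and -2.53 in mutants. Between Socs7 and Arhgap23, chr11:97275905-97310538 had 11 of 18 lower (median -1.15).

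Lists of developmental genes, fixed with earlier results known, were read through the intervals that flank their members. Beside genes of the neural list 42 of 101 tested interval probes were higher in neural tube and 2 lower (43.6% in all, median 0.31), against 9.74% and a median of -0.03 over all tested interval probes. Of the 42, 21 lay beside Pou3f3, 10 Irx5, 8 Elavl2 and 3 Sox2, so 4 of the list's genes held every higher call. The reverse probe on the Irx5 side differed by 1.30 ± 0.16 (adjusted p = 0.00476). Beside Hox genes 16 of 45 were higher and 1 lower (37.8%, median 0.47), and 15 of the 16 lay beside Hoxc4. The reverse probe in chr15:102926581-102932542, inside the locus beyond Hoxc4 given above, differed by 1.68 ± 0.21. Beside genes of the somite list 12 were higher and 23 lower of 99 (35.4%, median -0.13), with 17 of the lower calls beside 1 gene and 8 of the higher ones beside Mef2c. An example was -1.75 ± 0.13 in chr8:123649699-123649970, between Foxc2 and Foxl1, forkhead genes of mesenchyme.

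Beside p53 target genes 4 of 77 tested interval probes were higher and 4 lower (10.4%, median -0.10), a share near that of all interval probes. The reverse probe in chr1:135956616-135957485, between Fmod and Btg2, an antiproliferative p53 target, was higher in neural tube by 2.78 ± 0.28 (adjusted p = 0.00308). On the side of Cdkn1a, the p21 inhibitor of cyclin-dependent kinases, where RefSeq order places Trp53cor1, chr17:29183003-29217681 held a reverse probe that differed by -0.74 ± 0.18 (adjusted p = 0.0427). Beside replication licensing genes 2 of 58 were higher and 2 lower (6.90%, median 0.01). They included a reverse probe next to Cdt1, the licensing factor that Geminin binds, with -1.53 ± 0.29 (adjusted p = 0.0177). No probe of any list passed in a genotype comparison.

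Both strands of an interval mostly gave signal. Of the 1067 intervals probed on both strands, 990 (92.8%, exact 95% interval 91.1 to 94.3) had a tested probe on each, 38 on the forward strand only, 22 on the reverse only and 17 on neither. A strand counted if any of its probes was tested, and 76.1% of all interval probes were. A high share was therefore likely whether or not the strands were related, and the share for unrelated strands was not computed. Across the 990 intervals the mean tissue difference of forward and of reverse probes correlated at r = 0.67. The points share arrays and embryos, and the value is a description across intervals. For comparison, the first and last probe of one strand, ordered by probe identifier and not by position, correlated at 0.56 over 3144 combinations. Those are single probes and not means over a strand. The genotype differences correlated at 0.44 in neural tube and 0.45 in paraxial tissue. A call was made on the forward strand of 207 intervals, on the reverse of 185 and on both of 87, which is 42.0% and 47.0% of them. In 76 of the 87 every called probe had the same direction.

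Exactly reverse complementary probes gave a closer test of strand, since their base pairs are equal. There were 100 such pairs, of which 69 had both probes tested, and their tissue differences correlated at 0.79 with a median absolute difference of 0.18. Of the 12 pairs called on either strand 11 shared a sign, and 7 were called on both. At chr1:42759215-42759274 beside Pou3f3 the forward probe A_30_P01032893 read 13.51 and 13.92 in wild-type and 13.09 and 13.64 in mutant neural tube, against 12.15 and 10.62 in wild-type and 10.88 and 9.99 in mutant paraxial tissue. Its reverse complement A_30_P01026335 read 11.94 and 12.28 in wild-type and 11.97 and 12.16 in mutant neural tube, against 10.42 and 8.22 in wild-type and 9.54 and 7.46 in mutant paraxial tissue. Both were higher in every neural tube array, by 2.63 ± 0.35 and 3.18 ± 0.50 (SE, adjusted p = 0.00601 and 0.0101).

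Other pairs were called on a single strand. At chr13:5508113-5508172 the forward probe A_30_P01024998 was higher by 1.69 ± 0.21 (adjusted p = 0.00517) and its complement A_30_P01018265 by 0.63 ± 0.27 (adjusted p = 0.202). In the interval chr8:83218278-83223553 the values were 1.03 (adjusted p = 0.0443) and -0.25 (adjusted p = 0.509). The difference between strands was not itself tested in either pair. In chr2:94082835-94101939 the forward probe A_30_P01032490 differed by 0.74 ± 0.15 and its complement A_30_P01017843 by 0.95 ± 0.18, both called.

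Interval probes followed nearby genes over short distances. Under 1 kb from the nearest gene probe the tissue differences of interval and gene correlated at 0.73 over 975 interval probes, which share 275 gene probes. From 1 to 10 kb the value was 0.48 (3018), from 10 to 100 kb 0.19 (6317), and beyond 100 kb 0.06 (1895). Among called interval probes the nearest gene had the same sign for 87.3%, 83.3%, 65.5% and 63.0% in these classes. Over all tested interval probes with a position the same shares were 67.4%, 63.3%, 56.0% and 54.0%. Close probes can report the same RNA as the gene, and this was not tested. Within 100 kb 739 of 1019 called probes shared the sign (72.5%, exact 95% interval 69.7 to 75.2, which treats probes that share a gene as independent). Where both passed, 306 of 331 had the same direction (92.4%) and 25 the opposite, while 688 called interval probes had a nearest gene that did not pass.

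A few called intervals opposed their neighbour, and these examples were picked after their values were seen. Mef2c, a MADS-box factor of muscle and neurons, itself differed by -2.40 (adjusted p = 0.0019), yet the forward probe in chr13:83867711-83878140 read 13.75 and 13.63 in wild-type and 9.88 and 12.98 in mutant neural tube, against 12.13 and 10.55 in wild-type and 7.98 and 8.70 in mutant paraxial tissue. That probe, 94.8 kb from the Mef2c probe, was higher in neural tube by 2.72 ± 0.48 (adjusted p = 0.0144). Its lowest neural tube array lay below the highest paraxial arrays, so the tissues overlapped unless taken within genotype. At Fmod, which encodes a matrix proteoglycan, the gene differed by -1.03. The reverse probe between it and Btg2, 12.6 kb from the Fmod probe, differed by 2.78. At Arhgap29 the gene differed by -1.64 and the reverse probe in chr3:121627545-121639470, 78.9 kb from the gene probe, by 1.11.

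No interval probe passed the test between mutant and wild type in either tissue. In neural tube 0 interval probes passed (limma, 0.00% of all tested probes), the smallest adjusted p was 0.465, and 532 had an unadjusted p under 0.05, against 1576 of all 42752. In paraxial tissue 0 passed (0.00% of all), the smallest was 0.680, and 450 had an unadjusted p under 0.05 against 1495 of all. Leaving out a mutant paraxial array gave 5 (first) and 12 (second) calls in paraxial tissue, and no array or embryo left out gave any in neural tube. Interval probes sat slightly below 0 (median -0.07 in neural tube and -0.06 in paraxial tissue, with 56.9% and 57.0% of them lower in mutants). Other probes had medians of 0.01 and 0.04 and 49.1% and 45.7% lower. The genotypes did not overlap at 3957 interval probes in neural tube (32.1%, against 32.4% of all) and 4153 in paraxial tissue (33.7%, against 36.9%). From the 10th to the 90th percentile interval probes ran from -0.67 to 0.50 and from -0.72 to 0.41, and this shift was not tested. The sign of the interval probes' median turned in both tissues under median scaling (0.02 and 0.03), under normexp correction (0.06 and 0.04), without the first wild-type embryo (0.04 and 0.0034) and without the first mutant embryo (0.02 and 0.03). In paraxial tissue it also turned without the filter on dim probes (0.0077), and without the second wild-type embryo the medians were -0.21 and -0.16. All tested probes had medians of 0.08 and 0.10 under median scaling and 0.08 and 0.07 under normexp correction, above the interval probes. Without the first wild-type embryo they had 0.02 and 0.04, and without the first mutant embryo 0.01 and 0.04. In these last fits interval probes were above all probes in neural tube and below them in paraxial tissue.

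The probes that differed most by genotype are given as values, since none passed. In chr9:121845920-121858120, between Cyp8b1 and Gask1a, the reverse probe read 7.35 and 7.13 in wild-type against 4.78 and 4.75 in mutant neural tube, and 7.10 and 7.19 in wild-type against 5.01 and 4.82 in mutant paraxial tissue. Wild-type arrays were above background and mutant arrays were not, so only bounds can be given. Mutants were at least 1.31-fold lower in neural tube and 1.09-fold lower in paraxial tissue (adjusted p = 0.465 and 0.754). All 5 tested probes on this strand had the same sign in neural tube. For the forward probe A_30_P01018678 there, well above background on 1 wild-type neural tube and both wild-type paraxial arrays, the bounds were 1.18 and 1.26. In chr5:77188300-77205150, between Cep135 and Cracd, the forward probe read 6.85 and 7.59 in wild-type against 4.84 and 4.69 in mutant neural tube, and 7.72 and 8.13 in wild-type against 4.86 and 4.60 in mutant paraxial tissue. No mutant array was above background, nor was 1 of the wild-type neural tube arrays. Mutants were at least 1.29-fold and 1.88-fold lower (adjusted p = 0.496 and 0.68).

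Other lower values were bounded in the same way. The reverse probe in chr13:28898970-28901714, between Prl5a1 and Sox4, an SRY-box factor, was at least 1.68-fold lower in mutant neural tube. The forward probe in chr15:92197603-92208534, between Cntn1, a neural adhesion protein, and Pdzrn4, was at least 2.04-fold lower there. Among higher values, the reverse probe in chrX:18810088-18814982, where RefSeq order places Mir221 and Mir222, read 4.86 and 4.06 in wild-type against 9.62 and 7.41 in mutant neural tube, and 7.62 and 8.33 in wild-type against 9.27 and 7.72 in mutant paraxial tissue. Wild-type neural tube was not above background, so mutants were at least 4.09-fold higher there (adjusted p = 0.918), and the difference in paraxial tissue was 0.52 ± 0.78. The forward probe beside Dancr, a noncoding RNA with a probe inside chr5:74489084-74491430, gave 2.14 in neural tube. Beside Pvt1, a noncoding RNA next to Myc, the forward probe in chr15:62007025-62090191 gave 1.83 in paraxial tissue. In chr4:149383134-149451259, where RefSeq order places Mir34a, a p53-responsive microRNA gene, the forward probe gave 1.70 ± 0.27 in paraxial tissue (adjusted p = 0.916).

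Levels of surface ectoderm markers did not overlap between genotypes in either tissue. As mean deviation over their 5 genes, of which Cdh1 was well above background on no array, they ran from -1.07 to -0.01 in wild-type and 0.85 to 1.83 in mutant paraxial tissue, and from -1.25 to -0.56 and -0.12 to 0.33 in neural tube. The 6 erythroid markers, of which 1 was well above background on no array, were -0.23 to -0.07 in wild-type and 0.67 to 0.86 in mutant paraxial arrays. Endothelial markers were -0.01 to 0.27 in wild-type and 0.69 to 0.85 in mutant paraxial arrays. In neural tube, macrophage markers were 0.20 to 0.26 in wild type and -0.74 to -0.24 in mutants, and neural tube markers 0.79 to 1.14 and 1.22 to 1.34. The other lists and tissues overlapped between genotypes, and no marker passed the test between genotypes in either tissue. With 2 arrays against 2, genotypes also did not overlap at 32.4% of all tested probes in neural tube and 36.9% in paraxial tissue. The part of these lists in the genotype values was not tested.

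Whether the tissue difference differed between genotypes was tested by the interaction. Of the interval probes 0 passed (limma, 0.00% of all tested probes), the smallest adjusted p was 0.313 and 625 had an unadjusted p under 0.05 against 2156 of all. Leaving out single arrays gave up to 77 calls (without wild-type neural tube 1), 27 without wild-type paraxial 1, 13 without either second wild-type array, 7 and 11 without mutant paraxial 1 and 2, and 2 without mutant embryo 1. In chr1:87412059-87419385 the forward probe beside Gm2427 read 7.38 and 6.79 in wild-type against 4.81 and 4.70 in mutant neural tube, and 4.61 and 4.85 in wild-type against 5.17 and 4.87 in mutant paraxial tissue. It was above background in wild-type neural tube alone, so no size is given for the interaction (adjusted p = 0.313), and mutant neural tube was at least 1.18-fold lower. The reverse probe A_30_P01029185 at Mrln had an interaction of 2.47 ± 0.52 (adjusted p = 0.65), with -4.43 ± 0.37 in wild type and -1.96 ± 0.37 in mutants. Muscle markers in paraxial tissue spanned 1.52 to 2.83 in wild type and 0.63 to 1.55 in mutants, and their part in that value was not tested.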

How the data were processed

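Signals are the red-channel processed intensity that the authors deposited as scanner output, made with Agilent Feature Extraction 11.0.1.1 per the file headers, which subtracts local background. Here each array's log2 intensity was shifted so that all arrays shared a 75th percentile. The authors' deposited value table served as an alternative. It holds the same processed intensity to within 0.5% and so is no separate check. Control spots and outlier spots were left out. Testing was limited to probes with the well-above-background flag on each array of some group. limma 3.58.1 (R 4.3.3) fitted 4 group means over all 8 arrays and 42752 probes with the embryo as a random block (consensus correlation 0.597), and p-values were adjusted over all probes at 0.05. The fit was tested on simulated data in which tissue differences alone were set, so this does not measure its power for genotype or interaction. Each source label numbers the embryo, which pairs neural tube with paraxial tissue, and the paired deviations from the group means correlated at 0.544 (wild type) and 0.598 (mutant). All arrays were on 1 slide, with embryos 1 and 2 in its 2 rows, so embryo and row cannot be told apart in that correlation. Alternatives were other scalings, backgrounds, filters and blocks, and each array or embryo left out. Gene names were updated through RefSeq, which was used for names and gene order alone, since its assembly is not mm9. Named probes were, for tissue, the 10 called probes per direction with the largest fitted difference and no overlap between tissues, 1 per interval and strand; for genotype and interaction, 5 per direction by unadjusted p (without overlap for genotype); for each gene list, up to 4 by unadjusted p; and up to 6 intervals with both strands tested. The members and lists were chosen with earlier results of these data known. Having 8 arrays sets the precision. Some named results are not reported here.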

Additional observations from a re-analysis of the deposited data

How the results depend on the processing

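For the averaged tissue difference the count of called interval probes, 1199, stayed within 1.5 times under quantile scaling, median scaling, normexp correction, the authors' value table, detection on all 8 arrays, the replicate number as a fixed term and trended robust moderation. It was 708 with no filter on dim probes, 322 with the brightest probe per gene or interval (fewer probes tested), 145 without the replicate block and 618 with the embryo as a fixed block. Of the 1199, 1118 were shared with quantile scaling, 933 with normexp and 145 with the fit without the block. In wild type the count of 200 became 549 with normexp, 322 with trended robust moderation, 97 with no filter, 61 with the brightest probe, 5 without the block, 9 with the embryo fixed and 123 with the replicate number fixed. In mutants the count of 495 became 123, 134, 0, 0 and 283 for no filter, the brightest probe, no block, the embryo fixed and the replicate number fixed; the cause was not tested. Leaving out arrays or embryos gave 161 to 2307 for the average, 0 to 947 in wild type, 0 to 1047 in mutants, 0 to 0 for genotype in neural tube, 0 to 12 in paraxial tissue and 0 to 77 for the interaction. The fits without an embryo used the correlation of the full fit, since it could not be estimated. Detection, 73.8% on average, was 83.7% by the positive and significant flag and 82.1% by the negative controls, and 73.2% to 74.4% with an array left out. Both strands were detected at 96.2%, 95.7% and 87.1% of intervals by those flags and by detection on all 8 arrays, against 92.8%. A limit of 10 kb gave 84.4% in place of 72.5% for agreement in sign with the nearest gene. One named probe, A_30_P01022839 on the forward strand of chr13:112337405-112356455 (-0.36, adjusted p = 0.512), turned positive without wild-type neural tube 2 (0.10), without wild-type paraxial 2 (0.02) and without wild-type embryo 2 (0.11), with -0.82 as its lowest value, without wild-type embryo 1. Signal over background limits what could be tested: 3867 interval probes were not.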
